A study of Mus musculus with 20 samples.

Results

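Start codon peaks of N6-methyladenosine (m6A) were followed through 5 stages of mouse male germ cell development. A start codon peak is a region of a transcript, enriched by the m6A antibody, that the authors' location label places on the start codon. Such a label stood on 7292 peaks in the tables of undifferentiated spermatogonia, type A1 spermatogonia, pachytene/diplotene spermatocytes and round spermatids. The preleptotene table carries no start codon label, so peaks there that shared at least 1 nt of the same transcript with a labelled peak were taken, which gave another 2417. Together these were 9709 of 84778 peaks (11.5%), on 4016 transcripts of as many genes, out of 11972 genes with any peak. By stage they were 2625 peaks in undifferentiated spermatogonia, 1713 in type A1 spermatogonia, 2417 in preleptotene spermatocytes, 1828 in pachytene/diplotene spermatocytes and 1126 in round spermatids.

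The samples were germ cells of C57BL/6 mice, with no mutant allele or treatment named in the labels. Each stage gave 2 libraries of immunoprecipitated RNA and 2 of input RNA, 20 libraries in all. Polyadenylated RNA had been broken into fragments of about 100 nt by sonication and pulled down with a polyclonal m6A antibody of Synaptic Systems. Whether the replicates of a stage are separate animals is not stated in the labels. The p-values below reflect the spread of these libraries alone, and that spread may be technical. Undifferentiated spermatogonia are the pool that holds the stem cells of the testis, and type A1 spermatogonia are the first generation committed to differentiate. Preleptotene spermatocytes stand at the entry to meiosis, pachytene/diplotene spermatocytes are in meiotic prophase, and round spermatids are haploid cells before they elongate.

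m6A is written on mRNA during transcription by the Mettl3 and Mettl14 methyltransferase, removed by the demethylases Fto and Alkbh5, and read by proteins such as the Ythdf family. The mark is best known around stop codons and in 3' UTRs, where it is linked to mRNA decay and translation. A signal near the start of an mRNA can also come from N6,2'-O-dimethyladenosine, the methylated form of the first transcribed base next to the cap, which m6A antibodies bind as well.

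Depth ran from 9622068 to 22402907 mapped reads per library. Between 92.8% and 97.6% of reads mapped outside type A1, but 73.2% and 68.3% in the type A1 inputs and 87.5% and 85.5% in the type A1 immunoprecipitates. All values below are log2 enrichments as deposited, 1 per replicate, and their level differed between stages over whole tables. The median over start codon peaks was 3.11 and 3.44 in the replicates of undifferentiated spermatogonia, 1.74 and 1.76 in type A1, 3.23 and 3.14 in preleptotene, 3.23 and 2.85 in pachytene/diplotene and 1.65 and 1.64 in round spermatids. Comparisons between stages were therefore made after each column had been centred on the median of its table. Because RNA was measured in bulk, fewer cells of a type and less RNA per cell cannot be told apart.

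The label held together across tables, as it must where all tables were labelled from the same annotation. No transcript had over 1 labelled start codon peak in a table, and on 0 of the 4016 transcripts did the 5' UTR, start codon and coding labels of different stages contradict each other. The labels left a median of 146 nt for the place of the codon, with quartiles of 100 and 165 nt. Each transcript was therefore treated as 1 start codon site. Of the 2417 preleptotene peaks, 1877 had a blank label, 431 were labelled as coding sequence and 109 as 5' UTR. By their own label these 431 and 109 peaks do not lie on the start codon. They are counted among the start codon peaks below only because they overlap a labelled peak of another stage.

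Start codon peaks had a median width of 163 to 175 nt and began at a median of 67 to 96 nt from the first base of the transcript. Between 7.90% and 13.1% of them began at the first base itself. For those peaks a RefSeq sequence was at hand for the first bases only, namely the first 50 transcribed bases of the gene (assembly GRCm38.p6). The peaks run past that window, since no start codon peak was narrower than 100 nt. The stretches below come from 6 of the strongest such peaks whose window holds both an ATG and the letters GGAC within 26 bases. They are shown because they hold the letters of an m6A consensus core and an ATG close together under a measured peak. Capitals mark ATG and GGAC, and the strand is that of the gene.
Snx4: ctATGgagcaggcacctccGGACcccgaga
Exosc3: ctgccATGgctgaagtactgtccgcgGGAC
Stard5: cggaATGGACccgtcctgggccacgcaaga
Pias1: agATGgcGGACagtgcggaactaaaggtaa
Chml: agagtttgATGtggtaataatagGGACagg
Fkbp3: cggcggctgttccgcagcgtgcATGGACcg

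Snx4, a sorting nexin of endosomes, lies on the plus strand and its stretch is chr16:33251459-33251488. Its peak in undifferentiated spermatogonia reached 6.78 and 6.80. Exosc3, a subunit of the RNA exosome, is on the minus strand at chr4:45320567-45320596, and its peak measured 5.63 and 5.91 in the same cells. For Stard5, a lipid transfer protein, the stretch is chr7:83632037-83632066 on the plus strand with values of 4.87 and 4.78. Pias1, a SUMO ligase, is at chr9:62980844-62980873 on the minus strand, and its strongest peak was that of round spermatids, 5.19 and 4.22. Chml, a Rab escort protein, lies at chr1:175688304-175688333 on the minus strand and measured 4.42 and 4.95 in undifferentiated spermatogonia. Fkbp3, a prolyl isomerase, lies at chr12:65073889-65073918 on the minus strand and measured 4.21 and 5.07 there. In Stard5 and Fkbp3 the ATG and the GGAC overlap. In Chml the marked ATG runs into an in-frame stop within the stretch, so it opens no long reading frame, while the other 5 have no such stop there.

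Of 561 genes with a labelled peak from the first base, 452 had a window (80.6%). GGAC stood on the transcribed strand in 24.3% of them (Wilson 95% interval 20.6% to 28.5%), against 21.6% of all 27025 genes, and on the other strand in 20.4% against 19.8%. GGACT was found in 6.42% against 6.78%, GGACC in 7.96% against 6.07% and GGACA in 5.09% against 6.33%, each of which contains GGAC. On the transcribed strand ATG stood in 45.8% of the windows (41.3% to 50.4%), against 48.8% of all genes and 34.1% of all genes with a start codon peak. On the other strand it stood in 29.4% (25.4% to 33.8%), against 43.9% of all genes and 30.4% of all genes with a start codon peak. The interval thus held the share over all genes for GGAC on both strands and for ATG on the transcribed strand, and lay below it for ATG on the other. Against all genes with a start codon peak, the ATG interval held the share on the other strand and lay above it on the transcribed strand. The windows hold only the first bases of these peaks. The start of a RefSeq gene need not be that of the transcript the peak was called on, and an ATG in the window was not shown to be the annotated codon.

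The share of peaks that lay on the start codon varied little between the labelled stages. It was 11.4% in undifferentiated spermatogonia (Wilson 95% interval 11.0% to 11.8%), 10.5% in type A1 (9.99% to 10.9%), 11.7% in pachytene/diplotene (11.2% to 12.2%) and 10.3% in round spermatids (9.73% to 10.9%). These intervals cover counting error only. Stop codon peaks took 9.47% of the list in undifferentiated spermatogonia, 14.8% in type A1, 9.80% in pachytene/diplotene and 11.0% in round spermatids, so the stop codon list was the longer of the pair in type A1 and round spermatids. The start codon peak was the only peak of its transcript in 28.7% of undifferentiated, 34.6% of type A1, 31.8% of pachytene/diplotene and 44.9% of round spermatid transcripts that carried one. Transcripts with peaks but none on the start codon had a single peak more often, in 39.3%, 45.2%, 43.5% and 53.1% of cases in the same order. A transcript with more peaks is likelier to have one at any given place, so this contrast tells nothing particular about the start codon. Where a transcript had several peaks, the one on the start codon was the strongest in 41.5% to 47.0% of cases. The share that a peak picked at random would give was not computed.

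How strong the start codon peaks were beside other peaks of the same stage depended on the stage. The median over start codon peaks exceeded that over all other peaks by 0.35 and 0.19 in the replicates of undifferentiated spermatogonia and by 0.11 and 0.23 in those of pachytene/diplotene spermatocytes. In type A1 spermatogonia the differences were −0.05 and 0.03, and in round spermatids −0.07 and 0.02. Both replicates thus lay above 0 in undifferentiated spermatogonia and pachytene/diplotene spermatocytes and on either side of it in type A1 and round spermatids. The neighbouring 5' UTR peaks had higher medians than start codon peaks in all 4 stages, with 3.42 against 3.26, 1.89 against 1.75, 3.33 against 3.04 and 2.03 against 1.65 from undifferentiated spermatogonia to round spermatids (medians over peaks of the mean of both replicates, no test). Over the 4 stages the difference from all other peaks averaged 0.10 ± 0.14 (SD, n = 4), which an exact two-sided sign-flip test over stages did not separate from 0 (p = 0.5, the smallest it could give being 0.125).

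On the same transcript, where expression is shared, the start codon peak was set against the strongest stop codon peak. In undifferentiated spermatogonia 565 transcripts had both, and the start codon peak was higher by a median of 0.40 and 0.11 in the replicates and on 58.2% of the transcripts. The 362 pachytene/diplotene transcripts gave 0.18 and 0.45, with the start codon higher on 62.2%. In type A1 spermatogonia the sign was the other way on 445 transcripts, −0.24 and −0.05, with the start codon higher on 43.1%. The 156 transcripts of round spermatids gave 0.04 and 0.17 and 51.9%. The mean over stages was 0.13 ± 0.20 (SD, n = 4; exact two-sided sign-flip test, p = 0.375).

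**Figure D1:**
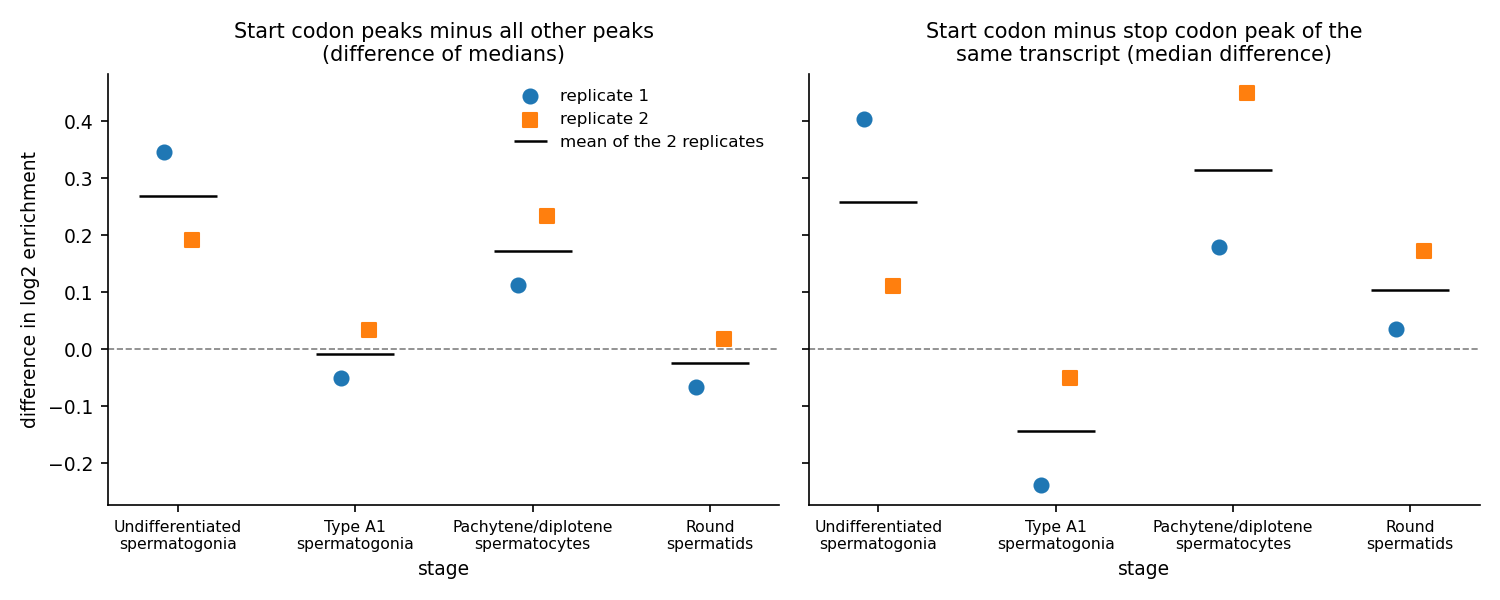
Left, median log2 enrichment of start codon peaks minus that of all other peaks; right, median difference between the start and stop codon peak of the same transcript, both on the vertical axis in log2 units by stage. Circles and squares are replicates 1 and 2 and lines their mean, which runs on the left from −0.02 in round spermatids to 0.27 in undifferentiated spermatogonia and on the right from −0.14 in type A1 to 0.31 in pachytene/diplotene.

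The 4016 sites were counted as listed in a stage when any peak of that stage overlapped the labelled peak. Of these, 563 (14.0%) were listed in all 5 stages, 643 in 4, 790 in 3, 927 in 2 and 1093 in 1. The overlapping peak need not carry the start codon label itself. That label stood at 330 sites (8.22%) in all 4 labelled tables, at 569 in 3, 1148 in 2 and 1969 (49.0%) in 1. Sites listed only before pachytene numbered 1532, those listed only from pachytene on 675, and 1809 occurred on both sides. Undifferentiated spermatogonia alone held 551 sites, 18.4% of the 2987 listed there, against 113 for type A1, 237 for pachytene/diplotene and 192 for round spermatids. No site could be listed in preleptotene alone, because a site needed a label in another table. The lists of pachytene/diplotene spermatocytes and round spermatids shared 1075 sites, 49.7% of those of pachytene/diplotene and 77% of those of round spermatids.

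Among the sites listed in all 5 stages the lowest value fell in type A1 at 282 and in round spermatids at 277, the stages whose tables were lowest as a whole. The site with the highest lowest value was that of Ywhaq, a 14-3-3 protein that binds phosphorylated partners (gene at chr12:21390329-21417436). It measured 8.95 and 9.27 in undifferentiated spermatogonia, 3.91 and 4.35 in type A1, 7.93 and 6.97 in preleptotene, 7.94 and 7.39 in pachytene/diplotene and 3.85 and 5.15 in round spermatids. Next came Mtrex, the helicase that feeds RNA to the nuclear exosome, with 6.36 and 6.26, 3.82 and 3.55, 6.25 and 6.43, 6.57 and 5.58, and 4.58 and 3.61 in the same order. Brix1, a ribosome assembly factor, followed with 5.81 and 5.39, 3.57 and 3.73, 5.09 and 5.00, 5.33 and 5.27, and 3.65 and 3.71. The others of the first 10 were Taf13, Ppwd1, Ncapg, Cox11, Fam53c, Alms1 and Mrpl37, with lowest values between 3.35 and 3.50. Alms1 and Mrpl37 carried the start codon label in round spermatids only. In the other stages their values came from overlapping peaks without that label. For Cox11 the preleptotene peak was labelled as coding sequence. Alkbh5, the m6A demethylase, was listed in every stage too. Its values were 7.06 and 8.52 in undifferentiated spermatogonia, 3.0 and 3.10 in type A1, 7.96 and 6.90 in preleptotene, 6.51 and 6.35 in pachytene/diplotene and 3.15 and 4.18 in round spermatids.

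**Figure D2:**
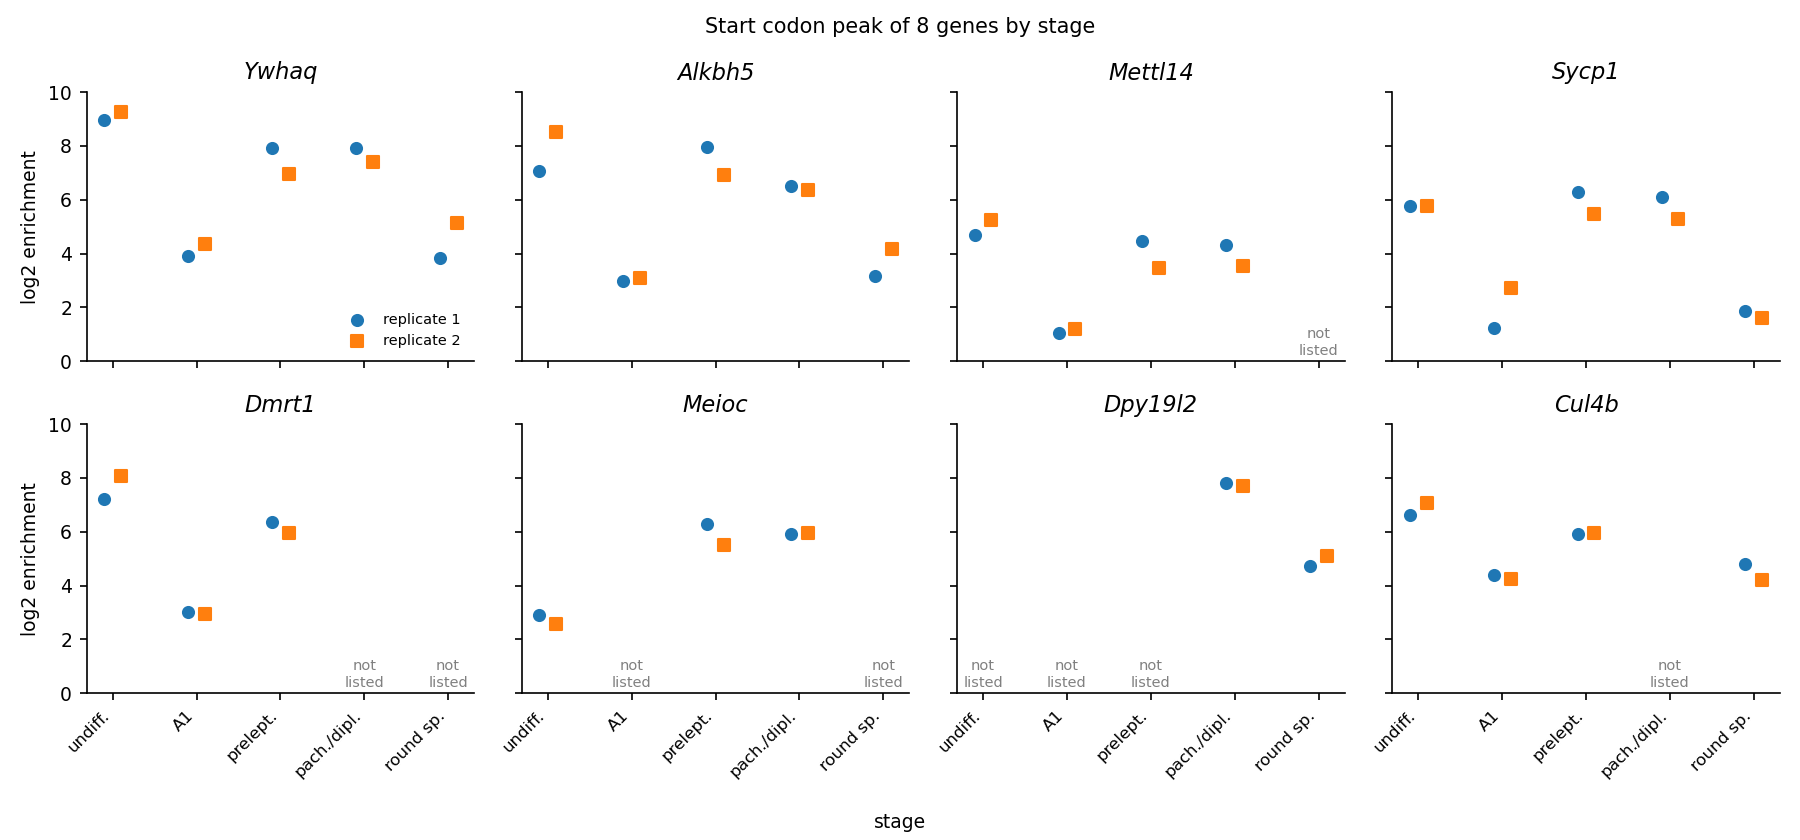
Log2 enrichment (vertical axis) of the start codon peak of 8 genes at each stage (horizontal axis), circles for replicate 1 and squares for replicate 2; "not listed" marks a stage with no such peak. Ywhaq and Alkbh5 are listed in all 5 stages, while Dpy19l2 is listed from pachytene/diplotene on, with 7.82 and 7.68 there, and Cul4b is missing in pachytene/diplotene.

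No X-linked gene carried a start codon peak in pachytene/diplotene spermatocytes. X-linked genes were 125 of the 2625 genes with a start codon peak in undifferentiated spermatogonia (4.76%), 104 of 1713 in type A1 (6.07%) and 113 of 2225 in preleptotene (5.08%). In pachytene/diplotene they were 0 of 1828, and in round spermatids 46 of 1126 (4.09%). Among all genes with any peak the X-linked shares were 3.66%, 3.46%, 3.78%, 0.0894% and 2.28% in the same order. As background, the X chromosome is transcriptionally silenced during pachytene. A gene that is not transcribed can give no peak, so the counts cannot tell a loss of RNA from a loss of the mark.

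**Figure D3:**
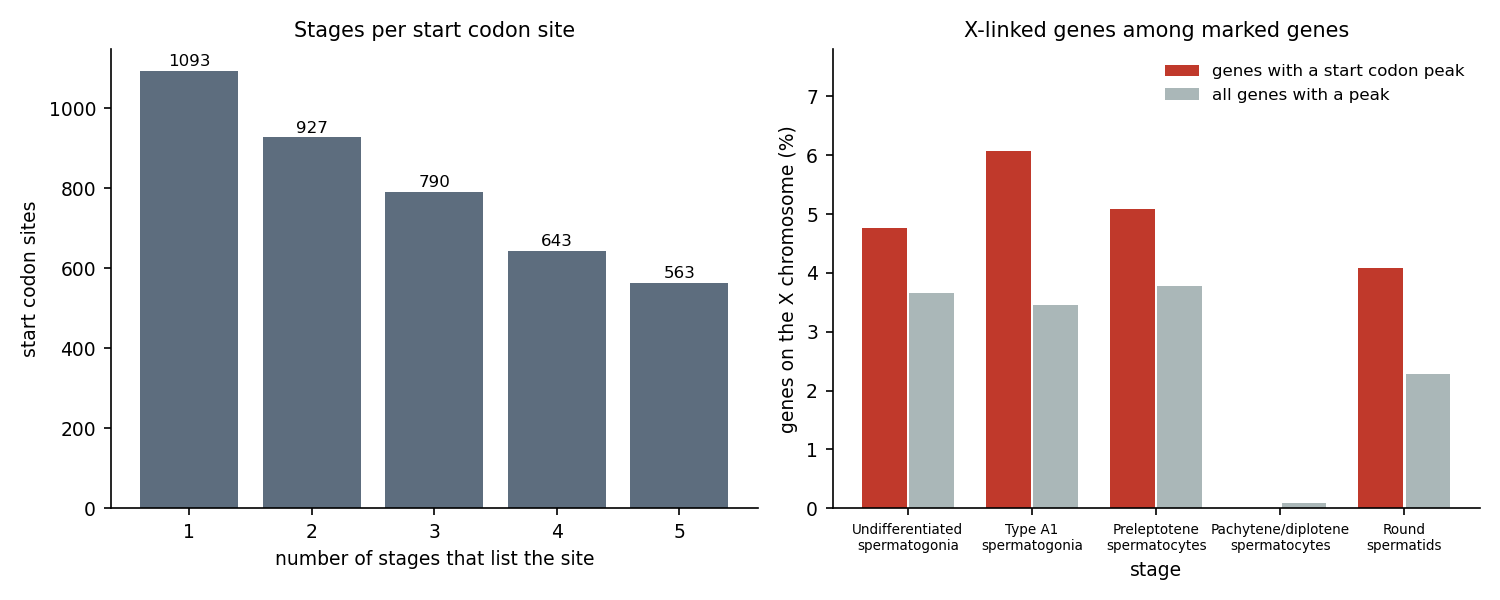
Left, number of start codon sites (vertical axis) by the number of stages that list them (horizontal axis), falling from 1093 in 1 stage to 563 in 5. Right, percent of genes on the X chromosome (vertical axis) by stage, red for genes with a start codon peak and grey for all genes with a peak; red is 0 in pachytene/diplotene and between 4.09% and 6.07% elsewhere.

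Each table also gives both replicates of 1 other stage at the same peaks, so single peaks could be compared between stages. The 4 centred values of a peak, 2 of the stage and 2 of its comparison stage, were fitted over the whole table with limma, and a peak was called at an adjusted p under 0.05. Each list holds the peaks found in its own stage, which favours a higher value there, and centring takes out only the part common to the table. The libraries of every stage enter 2 of the 5 comparisons, so the counts are not independent of each other.

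Undifferentiated spermatogonia were compared with type A1. Of 2584 start codon peaks tested, 773 were higher in undifferentiated spermatogonia (29.9%) and 130 lower (5.03%), where 15.9% and 9.22% of all peaks of the table were called, 25.1% in either direction. The median difference was 0.44 over start codon peaks and 0.10 over all. The shares ran along the transcript: 29.0% of 5' UTR peaks, 29.9% at the start codon, 15.7% of coding peaks, 8.75% at the stop codon and 4.84% of 3' UTR peaks were higher. The type A1 libraries also had the lowest mapping rates of the study, and the part of this in the result was not tested. When 1 type A1 replicate was left out, the calls dropped to 376 higher and 26 lower without replicate 1 and to 514 and 46 without replicate 2.

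The leading peak was that of Hmgn1, a nucleosome-binding protein (bases 1 to 151 of its transcript, gene at chr16:96121588-96127725). It measured 9.43 and 9.58 in undifferentiated spermatogonia and 2.47 and 2.54 in type A1. The centred difference was 5.31 ± 0.26 (SE, adjusted p = 0.000208), the largest called at a start codon here. Ccna2, the S and G2 phase cyclin, measured 7.82 and 7.86 against 1.45 and 1.82 (difference 4.52 ± 0.28, adjusted p = 0.000312). Srsf10, a splicing factor, measured 6.68 and 7.42 against 0.87 and 1.38 (4.23 ± 0.28). Pole4, a subunit of the leading-strand DNA polymerase, measured 8.04 and 8.28 against 2.27 and 2.25 (4.21 ± 0.25), and Pmaip1, a proapoptotic BH3 protein, 7.19 and 7.57 against 1.32 and 1.92 (4.07 ± 0.28). In each of these 5 the gap between the stages was several times the gap between the replicates of either.

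Peaks lower in undifferentiated spermatogonia were led by Fam8a1 with 2.62 and 2.62 against 3.50 and 3.38 (difference −2.51 ± 0.27, adjusted p = 0.0012). Rab2b, a small GTPase of the Golgi, measured 2.42 and 2.42 against 3.03 and 3.02 (−2.30 ± 0.27). Both show identical values in the 2 replicates of undifferentiated spermatogonia. Adad2, a testis RNA-binding protein, measured 2.69 and 3.17 against 3.42 and 3.48 (−2.21 ± 0.25). Tmem126a, a mitochondrial membrane protein, measured 3.02 and 3.43 against 3.48 and 3.48 (−1.94 ± 0.25). For these the deposited values differ little, and most of the difference is the gap between the medians of the columns. Without centring Rab2b, Adad2 and Tmem126a lost the call and Fam8a1 kept it.

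Called genes of the m6A pathway went the way of most start codon peaks called here, of which 85.6% were higher. Of all start codon peaks tested, 29.9% were higher and 5.03% lower. Of 10 tested start codon peaks in a list of m6A writers, erasers and readers, 7 were higher in undifferentiated spermatogonia and 0 lower, with a median difference of 1.37. Mettl14, the partner of Mettl3 in the methyltransferase, measured 4.70 and 5.24 against 1.05 and 1.2 (difference 2.16 ± 0.25, adjusted p = 0.0014). The difference for Alkbh5 was 3.16 ± 0.34 (adjusted p = 0.0011), and Ythdf3, a cytoplasmic reader, gave 4.81 and 3.89 against 0.68 and 0.60 (2.02 ± 0.41, adjusted p = 0.0108). Fto was not called, at 3.65 and 3.56 against 1.75 and 1.65 (0.22 ± 0.28). Of 10 peaks of genes that mark undifferentiated spermatogonia, 7 were higher and 0 lower (median 1.17). Among them, Dusp6, a phosphatase that dampens ERK signalling, measured 4.25 and 5.00 against 0.16 and 0.82 (2.44 ± 0.29), and Foxo1, a factor of stem cell maintenance, 5.12 and 5.14 against 1.71 and 1.99 (1.59 ± 0.27). Zbtb16, a zinc finger factor of the same pool, measured 3.78 and 5.06 against 1.80 and 2.07 and was not called.

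For the lists that follow, the share over all start codon peaks was again 29.9% higher and 5.03% lower. In the list of spermatogonial differentiation genes, 4 of 10 peaks were higher and 0 lower, with a median of 0.09. Dmrt1, which holds back meiosis in spermatogonia, measured 7.23 and 8.08 against 3.01 and 2.95 (2.99 ± 0.26, adjusted p = 0.000711). Dnmt3a, a de novo DNA methyltransferase, measured 6.89 and 7.26 against 2.57 and 2.72 (2.74 ± 0.25). Dazl, a germ cell RNA-binding protein, measured 4.50 and 5.46 against 1.09 and 1.59 (1.96 ± 0.29). RNA-binding translational regulators had 9 higher and 1 lower of 19 (median 0.77), led by Caprin1 of RNA granules with 6.51 and 6.18 against 1.68 and 2.04 (2.79 ± 0.32). Cell cycle and replication genes had 9 higher and 2 lower of 25 (median 0.41). Translation initiation factors had 7 higher and 0 lower of 26 (median 0.25); among those, Eif3j1 and Eif3j2 are near-identical copies with nearly the same values and cannot be taken as separate. Ribosomal protein genes had 2 higher and 0 lower of 14 (median 0.09).

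Some markers of somatic testis cells were listed in undifferentiated spermatogonia and not in type A1. All 8 of a set of defining Sertoli cell markers had a peak somewhere on the transcript in undifferentiated spermatogonia, 0 of them at the start codon, and none had one in type A1. Of 10 defining markers of Leydig, stromal, endothelial and immune cells, 7 had a peak in undifferentiated spermatogonia, 2 of them at the start codon, against 0 in type A1. In the wider Sertoli list, 5 of 8 tested start codon peaks were higher and 0 lower (median 1.21), against 29.9% and 5.03% of all. In the wider list of Leydig, stromal, endothelial and macrophage markers it was 1 of 4, namely Cdh5, with 0 lower (median 0.55). Dmrt1, Aard and Tjp1 are among the Sertoli genes called, although Dmrt1 is also made by spermatogonia. The part of somatic RNA in the start codon differences was not tested.

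Type A1 spermatogonia were compared with preleptotene spermatocytes. Of 1701 start codon peaks tested, 126 were higher in type A1 (7.41%) and 494 lower (29.0%), where 14.4% and 13.6% of all peaks were called, 28% in either direction. The median difference was −0.42 over start codon peaks and −0.0055 over all. Lower calls again ran along the transcript, with 32.3% of 5' UTR peaks, 29.0% at the start codon, 14.0% of coding peaks, 8.0% at the stop codon and 4.45% of 3' UTR peaks. At the same peaks the median over start codon peaks minus that over the others was −0.05 and 0.03 in type A1 and 0.57 and 0.42 in preleptotene. The gap was larger than the spread between replicates, but an exact permutation test of 2 against 2 could not go below p = 0.333, which it gave. Without preleptotene replicate 2 the calls were 243 higher and 787 lower, and without type A1 replicate 1 they were 42 and 127.

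**Figure D4:**
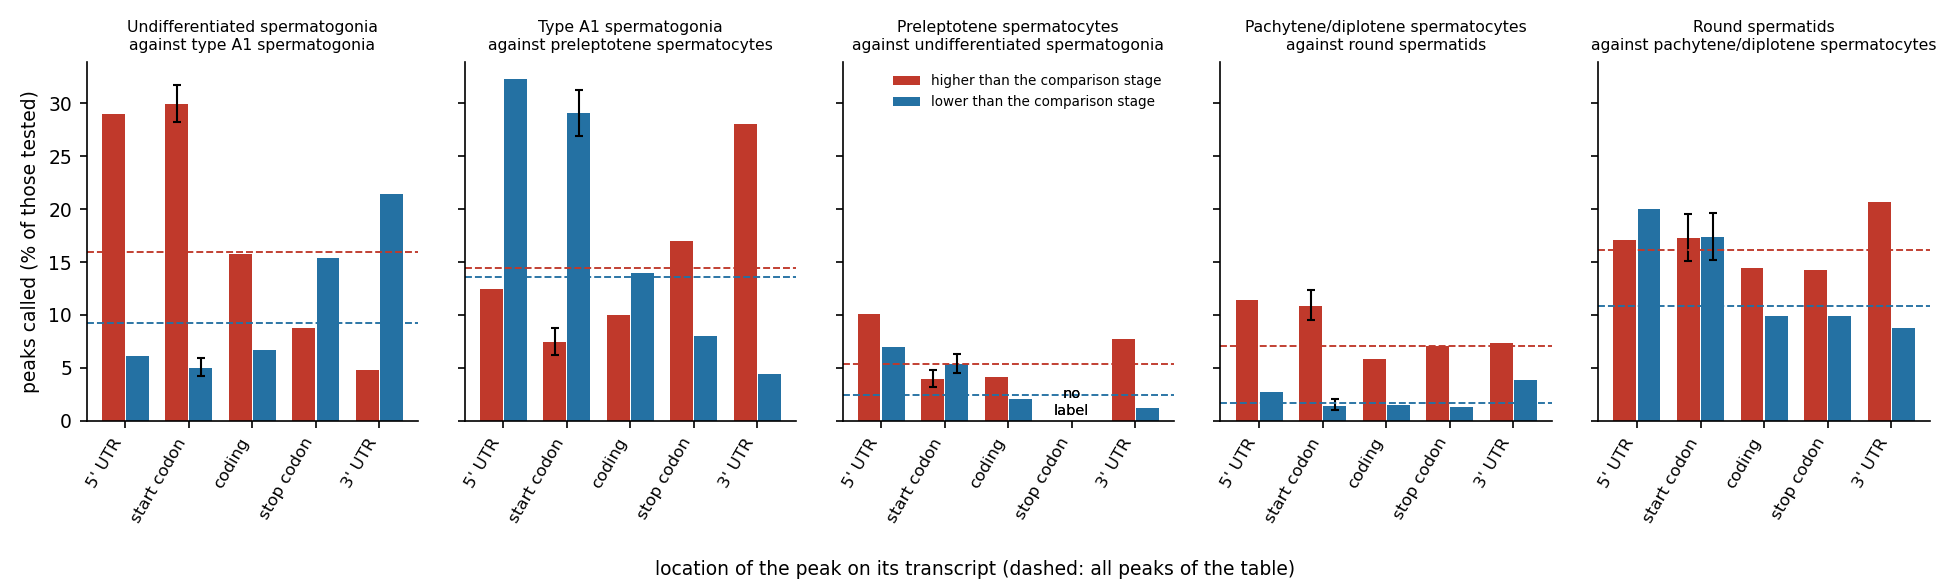
Percent of tested peaks (vertical axis) called higher (red) or lower (blue) in each of 5 stage comparisons, by location on the transcript (horizontal axis). Dashed lines give the same for all peaks of the table and bars on the start codon are Wilson 95% intervals; against type A1, 29.9% of start codon peaks were higher in undifferentiated spermatogonia and 15.9% of all peaks.

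Among the peaks lower in type A1, Pole4 measured 1.92 and 1.91 against 7.46 and 6.08 in preleptotene (difference −3.79 ± 0.43, adjusted p = 0.0017). Srsf2, a splicing factor of the SR family, measured 1.90 and 2.36 against 6.80 and 6.56 (−3.49 ± 0.28). Lonrf3, an X-linked RING finger protein, measured 3.08 and 3.15 against 7.47 and 7.74 (−3.43 ± 0.25). Syncrip, an RNA-binding protein of transport granules, measured 1.72 and 1.81 against 5.93 and 6.55 (−3.41 ± 0.28). The values for Alkbh5 were 3.0 and 3.10 against 8.04 and 6.92 (−3.37 ± 0.38, adjusted p = 0.0016). In all 5 both type A1 values lay far below both preleptotene values before centring.

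Higher in type A1 were Zfp449, an X-linked zinc finger protein, with 3.11 and 3.25 against 0.65 and 1.0 (3.42 ± 0.26, adjusted p = 0.001), and Slc44a4, a transporter of the choline family, with 2.36 and 2.45 against 0.49 and 0.49 (2.98 ± 0.24). Il1rap, a co-receptor of interleukin 1, measured 2.14 and 2.97 against 0.96 and 0.58 (2.84 ± 0.34). Many comparison values of such peaks recur exactly across the column. Of the 126 peaks called higher, 40.5% had a preleptotene value found at 5 or more peaks of its column, against 9.58% of all start codon peaks tested. The number of reads behind a single peak was not used here, so the part of shallow peaks was not tested.

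Of all start codon peaks in this comparison, 7.41% were higher and 29.0% lower. By list, the m6A pathway had 0 higher and 3 lower of 4, namely Alkbh5, Fmr1 and Mettl14. Mettl14 measured 1.07 and 1.21 in type A1 and 4.65 and 3.52 in preleptotene (−1.88 ± 0.38, adjusted p = 0.0107). Spermatogonial differentiation genes had 0 higher and 6 lower of 10 (median −0.98), namely Ccnd1, Dazl, Dmrt1, Dnmt3a, Kit and Stk31. Meiotic entry, axis and recombination genes had 0 higher and 4 lower of 10 (median −0.55). Sycp1, the transverse filament of the synaptonemal complex, measured 1.25 and 2.72 against 6.12 and 5.36 (−2.69 ± 0.49, adjusted p = 0.0074). Cell cycle genes had 1 higher and 7 lower of 19, translation initiation factors 1 and 6 of 18, and chromatin writers and remodelers 0 and 7 of 20. The X-linked helicase Ddx3x was the initiation factor that was higher, with 3.31 and 3.61 against 3.60 and 3.28 (1.08 ± 0.27, adjusted p = 0.0227). It lost the call without centring and without either type A1 replicate, and Mettl14 lost it without type A1 replicate 1.

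Preleptotene spermatocytes were compared with undifferentiated spermatogonia, which brings together the stages on either side of type A1. Fewer peaks changed. Of 2415 start codon peaks tested, 95 were higher in preleptotene (3.93%) and 130 lower (5.38%), where 5.36% and 2.45% of all peaks were called, 7.8% in either direction. Preleptotene peaks were taken by overlap with a labelled peak of another stage. Of the 2225 preleptotene sites, 2034 (91.4%) were also listed in undifferentiated spermatogonia. That choice can favour a high value in the comparison stage, which was not required of all peaks, and its part was not tested. The median difference was −0.18 over start codon peaks and 0.0083 over all. The balance between the directions was not stable. Without preleptotene replicate 2 there were 50 higher and 38 lower, and without replicate 1 there were 49 and 105. With columns scaled to a common spread there were 97 higher and 62 lower. Of the 95 higher peaks, 43.2% had a comparison value found at 5 or more peaks of its column, against 11.5% of all start codon peaks tested. Without peaks that hold such a value 128 were called, 48 higher and 80 lower.

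Meioc, which prolongs the meiotic programme at its start, was the gene of meiotic entry with the largest change. It measured 6.30 and 5.50 in preleptotene against 2.60 and 2.70 in undifferentiated spermatogonia (difference 3.25 ± 0.38, adjusted p = 0.0015). In the list of meiotic entry, axis and recombination genes, 5 of 23 peaks were higher and 0 lower, 2 of them on Tex12. Of all start codon peaks, 3.93% were higher and 5.38% lower. Sycp3, the lateral element of the synaptonemal complex, was not called, with 4.84 and 3.88 against 4.65 and 4.85 (−0.39 ± 0.39). Mybl1, the transcription factor of pachytene genes, had 2 preleptotene peaks that overlapped labelled start codon peaks of later stages. By their own labels, 5' UTR and coding sequence, neither of them lay on the codon. The one labelled 5' UTR measured 5.07 and 5.76 against 2.70 and 2.62 (2.76 ± 0.37, adjusted p = 0.0022). Slc17a7, a vesicular glutamate transporter, led the higher calls with 4.46 and 4.92 against 0.64 and 1.42 (3.67 ± 0.34, at a peak labelled as coding sequence), and Rdh10, which makes retinaldehyde for retinoic acid, measured 6.45 and 5.70 against 4.32 and 4.37 (1.74 ± 0.37, adjusted p = 0.0164).

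Lower in preleptotene were Tpd52l2 with 1.60 and 2.38 against 5.11 and 4.88 (−3.00 ± 0.39), Ptbp3, a splicing repressor, with 4.14 and 4.63 against 7.03 and 7.30 (−2.78 ± 0.34), and Srsf2 with 6.79 and 6.57 against 9.07 and 9.63 (−2.67 ± 0.33). Dmrt1 fell by 1.52 ± 0.35 (adjusted p = 0.0213) and Dnmt3a by 1.94 ± 0.33 (adjusted p = 0.0052). Cdc20, an activator of the anaphase-promoting complex, measured 5.89 and 4.81 against 6.85 and 7.14 (−1.64 ± 0.40), and Mad2l1, its checkpoint inhibitor, 4.00 and 3.89 against 4.99 and 5.29 (−1.19 ± 0.33). Translation initiation factors had 0 higher and 5 lower of 25 (median −0.51), namely Ddx3x, Eif1, Eif4ebp2 and the copies Eif3j1 and Eif3j2. Of all start codon peaks, 5.38% were lower. Neither the m6A list, with 9 peaks tested, nor ribosomal protein genes, with 8, had a call in limma in either direction. With columns scaled to a common spread Dmrt1, Dnmt3a, Cdc20, Mad2l1, Ddx3x, Eif4ebp2, Eif3j1 and Eif3j2 all lost the call in this comparison.

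Pachytene/diplotene spermatocytes were compared with round spermatids at the peaks of the former. Of 1802 start codon peaks tested, 196 were higher in pachytene/diplotene (10.9%) and 26 lower (1.44%), where 7.06% and 1.71% of all peaks were called, 8.78% in either direction. The median difference was 0.21 over start codon peaks and 0.0070 over all. By location 11.4% of 5' UTR peaks, 10.9% at the start codon, 5.83% of coding, 7.07% of stop codon and 7.35% of 3' UTR peaks were higher. Without round spermatid replicate 1 the calls fell to 94 higher and 20 lower. Recurring round spermatid values stood at 30.1% of the 196 higher peaks and at 15.5% of all start codon peaks tested, and without peaks that hold a recurring value 127 were higher and 16 lower.

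H3f3b, which encodes the replacement histone H3.3, gave the largest difference of any start codon peak called in the 5 comparisons. It measured 8.35 and 8.11 in pachytene/diplotene and 0.03 and 0.09 in round spermatids (difference 6.56 ± 0.28, adjusted p = 1.29e-05). The gene lies at chr11:116021961-116026039 in GRCm38.p6. Taf2, a subunit of TFIID, measured 7.98 and 7.41 against 1.42 and 2.99 (3.87 ± 0.45), and Ptchd3 7.33 and 8.01 against 1.56 and 2.87 (3.85 ± 0.48). Cyb5b, a mitochondrial cytochrome b5, measured 6.5 and 6.43 against 0.60 and 1.69 (3.71 ± 0.38), and Spcs3, a subunit of the signal peptidase, 6.55 and 5.94 against 0.53 and 1.53 (3.60 ± 0.35). Meiotic entry, axis and recombination genes had 5 higher and 0 lower of 13 (median 1.06), against 10.9% and 1.44% of all start codon peaks. There, Sycp1 measured 6.09 and 5.27 against 1.83 and 1.76 (2.28 ± 0.29, adjusted p = 0.003) and Meioc 5.90 and 5.94 against 1.42 and 2.14 (2.53 ± 0.34). Mybl1 measured 7.40 and 6.99 against 2.47 and 3.46 (2.61 ± 0.35), and Adad2 5.44 and 4.81 against 0.07 and 1.89 (2.54 ± 0.49).

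Spermiogenesis genes first carried start codon peaks in number at this stage. Of the list, 0 of 15 genes with any peak had one at the start codon in undifferentiated spermatogonia, 0 of 14 in type A1, 3 of 19 in preleptotene, 29 of 67 in pachytene/diplotene and 26 of 69 in round spermatids. The share over all genes with any peak was 28.9%, 23.4%, 29.8%, 27.2% and 20.1% in the same order. Only 1 of the 29 was higher in pachytene/diplotene and 0 lower (median −0.0027), namely Dpy19l2, needed for the acrosome to attach to the nucleus. It measured 7.82 and 7.68 against 4.70 and 5.12 (1.23 ± 0.30, adjusted p = 0.0337). Spag6l, a protein of the axoneme, was not called with 5.79 and 5.25 against 3.78 and 3.59 (0.22 ± 0.28). The highest start codon peak of both late stages was that of Cmtm2a, an androgen receptor corepressor, with 8.93 and 8.01 in pachytene/diplotene and 5.89 and 5.44 in round spermatids. Its difference was 1.16 ± 0.31 (adjusted p = 0.0491). Both Cmtm2a and Dpy19l2 lost the call with columns scaled to a common spread.

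Lower in pachytene/diplotene were Hacd2, an enzyme of long fatty acid synthesis, with 3.32 and 2.49 against 3.26 and 5.09 (−2.88 ± 0.50, adjusted p = 0.0107), and Dis3, the catalytic exosome subunit, with 2.80 and 3.11 against 3.50 and 4.05 (−2.43 ± 0.35). Pias1, whose first bases are printed above, measured 4.63 and 3.29 against 5.09 and 4.13 (−2.26 ± 0.40, adjusted p = 0.0117). The groups overlap for Hacd2 and Pias1 before centring, and without centring Pias1 and Dis3 lost the call.

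At the peaks of round spermatids the same libraries gave nearly as many start codon peaks up as down. Of 1113 tested, 192 were higher in round spermatids (17.3%) and 193 lower (17.3%), where 16.1% and 10.9% of all peaks were called, 27.0% in either direction. The median difference was −0.15 over start codon peaks and −0.05 over all. Of the 192 higher peaks, 53.6% had a pachytene/diplotene value found at 5 or more peaks of its column, against 1.55% of the 193 lower ones. With columns scaled to a common spread the calls were 163 higher and 84 lower. They were 43 and 104 among peaks with a mean log2 enrichment of at least 2, and 104 and 143 without peaks that hold a recurring value. Without round spermatid replicate 1 they were 85 and 45, and without replicate 2 they were 98 and 82.

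The higher calls were rich in X-linked genes by count. Of 41 X-linked start codon peaks tested, 35 were higher and 0 lower, against 155 higher and 193 lower of 1070 autosomal ones. Over all locations 138 of 157 X-linked peaks were higher and 0 lower. Cul4b, an X-linked cullin of ubiquitin ligases, measured 4.81 and 4.21 in round spermatids and 3.04 and 0.87 in pachytene/diplotene (difference 3.72 ± 0.49, adjusted p = 0.0011). Taf9b, an X-linked TFIID subunit, measured 3.30 and 3.38 against 2.48 and −0.07 (3.31 ± 0.56, adjusted p = 0.0031), and Tspan6, a tetraspanin, 2.92 and 2.32 against 0.81 and 0.32 (3.23 ± 0.27). Recurring values stood in the pachytene/diplotene columns at 32 of the 41 peaks. Taf9b lost its call without either round spermatid replicate. Whether the mark or only the amount of RNA differs was not tested.

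Peaks lower in round spermatids were led by Ptchd3 with 1.66 and 2.62 against 6.91 and 7.52 (−3.90 ± 0.44) and Slain2, a microtubule plus-end protein, with 1.07 and 2.25 against 6.75 and 6.60 (−3.84 ± 0.40). Lin7a, a scaffold of cell junctions, measured 1.44 and 0.91 against 5.54 and 5.31 (−3.08 ± 0.27), and Vamp3, a SNARE of recycling endosomes, 1.49 and 1.91 against 5.74 and 6.10 (−3.04 ± 0.34). Meiotic entry, axis and recombination genes had 0 higher and 4 lower of 6, namely Smc1b, Spo11, Sycp1 and Sycp3. Of all start codon peaks, 17.3% were higher and 17.3% lower. Sycp3 measured 1.97 and 2.02 against 5.23 and 3.85 (−1.37 ± 0.33, adjusted p = 0.0157). Piwil2, a piRNA-binding protein, measured 1.84 and 1.81 against 4.38 and 3.56 (−0.97 ± 0.26, adjusted p = 0.024). Spermiogenesis genes had 4 higher and 1 lower of 26, the former being Cabyr, Catsper1, H2al2a and Odf3 and the latter Dpy19l2 (−1.54 ± 0.28). With columns scaled to a common spread Sycp3 and Piwil2 lost the call and the differences for Dpy19l2 and Cmtm2a turned from −1.54 and −1.58 to 0.48 and 0.85, neither of them called.

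Labelled start codon peaks stood in both late tables at 736 sites, 40.3% of the pachytene/diplotene and 65.4% of the round spermatid peaks. The fit over the round spermatid table called 161 of them lower in round spermatids and 12 higher, with a median centred difference of −0.37. The fit over the pachytene/diplotene table, on the same libraries, called 56 higher in pachytene/diplotene and 19 lower, with a median of −0.03. The calls at these sites thus depend on the table used. Before centring, the median of these sites was 3.34 in pachytene/diplotene and 1.71 in round spermatids. In the pachytene/diplotene table, the column medians taken off were 3.13 and 2.64 for that stage and 1.26 and 1.29 for round spermatids. In the round spermatid table they were 1.71 and 1.62 for that stage and 3.08 and 2.60 for pachytene/diplotene.

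**Figure D5:**
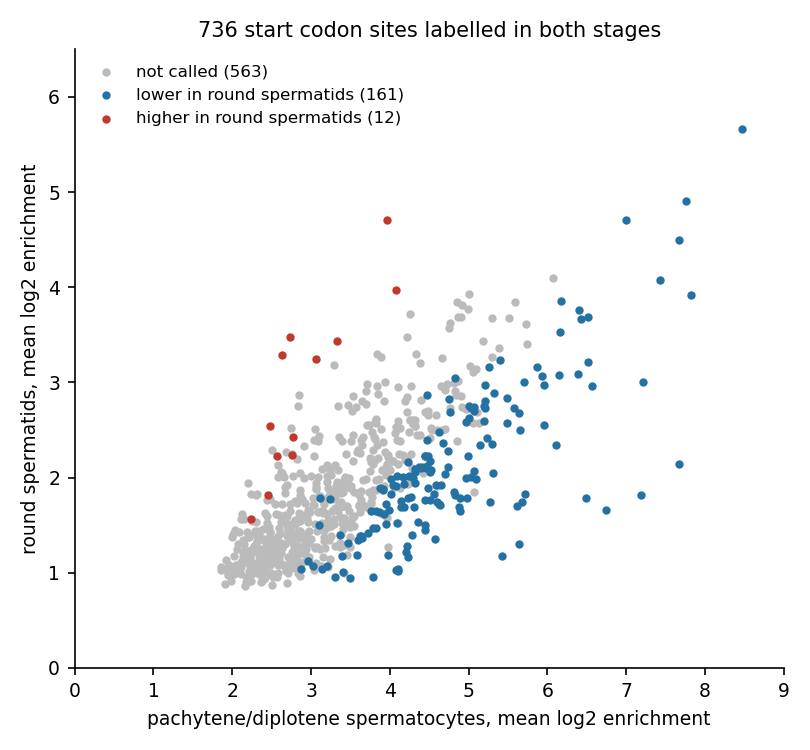
Mean log2 enrichment of 736 start codon sites in pachytene/diplotene spermatocytes (horizontal axis) and round spermatids (vertical axis), coloured by the call in the round spermatid table after centring. Blue points are the 161 lower and red the 12 higher in round spermatids; the highest point at the upper right is Cmtm2a.

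How often a gene with peaks had one at the start codon was counted by list, with no test. Over all stages 4016 of 11972 genes with any peak had one at the start codon (33.5%). The share was 30 of 54 for translation initiation factors (55.6%), 11 of 26 for m6A writers, erasers and readers (42.3%), 22 of 50 for RNA-binding translational regulators (44.0%), 32 of 72 for cell cycle and replication genes (44.4%), 40 of 101 for chromatin writers and remodelers (39.6%) and 14 of 36 for piRNA pathway genes (38.9%). The other lists ran from 33.3% for Sertoli cell markers to 42.9% for genes that mark undifferentiated spermatogonia. All lists but the Sertoli one lay above 33.5%, so a higher share was not particular to the lists named. For genes that mark undifferentiated spermatogonia the count by stage was 12 of 28, 2 of 17, 2 of 9, 1 of 3 and 0 of 1 from undifferentiated spermatogonia to round spermatids. For meiotic entry, axis and recombination genes it was 15 of 42, 10 of 36, 20 of 56, 14 of 41 and 6 of 23. Over all genes with any peak, the share with one at the start codon was 28.9%, 23.4%, 29.8%, 27.2% and 20.1% in the same order.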

How the data were processed

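The authors deposited a list of m6A peaks for every stage, placed on RefSeq transcripts and labelled by location. Per the file headers, its values are the log2 enrichment in both replicates and the log2 ratio to a second stage. A deposited table of raw and mapped read counts per library gave the depth, and no read counts behind single peaks were used. Reads were aligned with TopHat2 2.0.14 to mm10, per the submitters' processing notes. How peaks were called, at which threshold and on which pooled or single replicates is not given in the sources used here.

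Headers leave the second stage unnamed. Enrichment minus ratio matched, over overlapping peaks, the same replicate of 1 other stage at r of 0.999, and any other stage at 0.75 or less. Symbols were matched to a RefSeq table of GRCm38.p6 by gene for 9628 of the 9709 peaks, by accession for 79 and not for 2. Peaks shared a site when they overlapped by 1 nt.

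Per table, the 2 values of the stage and the 2 of its comparison stage were centred on the column median. limma 3.58.1 under R 4.3.3 (lmFit and eBayes, no block for the replicate number) compared them, with Benjamini-Hochberg adjustment over all its peaks and a threshold of 0.05. Any peak holding an exact 0 was dropped, which took 2 to 41 start codon peaks per table. Levels were compared over stages by exact tests, and Wilson intervals were taken from scipy 1.17.1. Scripts were tested on simulated data. Replicate numbers did not pair the samples, since the deviations of same-numbered samples correlated at −0.14 to 0.12.

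Alternatives were a replicate block, no centring, columns scaled to a common spread, a mean log2 enrichment of at least 2, other overlaps and references, and leaving out each replicate.

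Members and the 14 gene lists were chosen with earlier results of these data known. Named genes are the 5 highest start codon peaks per stage, the 5 highest and 5 lowest differences called per comparison, the 10 sites with the highest lowest-of-5 value, up to 4 genes per list, Sycp3 and Mettl14, and per stage the 3 that most exceed the next peak of their transcript. The rule passes over Gm, Rik and hyphenated symbols. Other genes are named only as called members of a list, as markers or for their sequence. The text names fewer than the rule does. The X chromosome and recurring values were looked at after the data were seen.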

Additional observations from a re-analysis of the deposited data

How the results depend on the processing

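With 2 replicates a stage, calls depended on single libraries. Leaving out 1 replicate gave 402 to 1223 start codon peaks called for undifferentiated spermatogonia against type A1 (903 with all), 169 to 1030 for type A1 against preleptotene (620), 88 to 206 for preleptotene against undifferentiated spermatogonia (225), 114 to 285 for pachytene/diplotene against round spermatids (222) and 130 to 420 the other way round (385). The lowest were without replicate 1 of type A1 in the comparisons with that stage, without preleptotene replicate 2 in that of preleptotene with undifferentiated spermatogonia, and without replicate 1 of round spermatids in both late ones.

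Without centring, 2443 peaks were called in undifferentiated spermatogonia, 1378 in type A1, 1699 in pachytene/diplotene and 839 in round spermatids, of which 2442, 29, 1698 and 64 were higher, since whole columns differ in level. Scaling to a common spread gave 247 for round spermatids and changed the share of higher calls there from 49.9% to 66.0% and in preleptotene from 42.2% to 61.0%. A mean log2 enrichment of at least 2 left 379 in type A1 and 147 in round spermatids, where 11.9% and 29.3% were higher. The replicate block gave 401 in preleptotene (159 higher, 242 lower) and moved no other count by over 1.5 times. It ended no call of a named peak. As same-numbered samples correlated below −0.1, a crossed block was added after seeing the data and gave 976 higher and 211 lower in undifferentiated spermatogonia and 172 and 604 in type A1. Without peaks that hold a recurring value, also chosen after seeing the data, the counts were 128 for preleptotene cells, 143 for pachytene/diplotene and 247 for round spermatids. Preleptotene members with a blank label alone gave 70 higher and 104 lower.

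The strongest peak of each gene lay on the start codon in 18%, 14.5%, 17.3% and 14.2% of genes in undifferentiated spermatogonia, type A1, pachytene/diplotene and round spermatids. With a mean of at least 2 the share in type A1 was 9.81%, the round spermatid differences were 0.077 against other peaks and 0.26 against the stop codon, and 150 sites were listed in all 5 stages. Without type A1, 702 sites were listed in the other 4. Against coding peaks only, the type A1 difference was 0.088. Over the 4 stages the difference from other peaks ranged from 0.086 to 0.12 and that from the stop codon from 0.095 to 0.17 over the alternatives, with p from 0.125 to 0.625 in exact tests.

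Of 108 calls of single named peaks, 32 were lost when 1 replicate was left out, 21 with scaled columns and 9 without centring. With scaled columns Cmtm2a and Dpy19l2 in round spermatids turned to 0.85 and 0.48, and Cul4b and Taf9b in type A1 to 0.89 and 0.58. Without centring Ddx3x and Rdh10 in undifferentiated spermatogonia turned to 1.63 and 1.52, and Tjp1 in pachytene/diplotene to 1.37. The cause was not tested.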
